A study of Homo sapiens with 6 samples.

Results

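Macroautophagy was examined through 42 genes: the core machinery that builds the autophagosome and the receptors that load it. The genes were taken by symbol from a named list, and all 42 were found among the 58381 gene identifiers of the count table. All 42 also passed the filter on low counts, which left 17219 genes for testing. They were ordered by role: 5 genes of the ULK1 complex, 6 of the class III phosphatidylinositol 3-kinase (PI3-kinase) complex, 8 of lipid transfer and phosphatidylinositol 3-phosphate (PI3P) reading, 11 of the conjugation systems, 5 ATG8 proteins and 7 cargo receptors.

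The cells were MOLM-13, a human cell line established from acute myeloid leukaemia and bearing the MLL-AF9 fusion. One group was kept for 20 h in 5 µM DB2115, a compound named only by this code, and the other for 20 h in vehicle, 0.001% DMSO. Both groups were the same line with no genetic change, grown in RPMI medium with 10% serum, so a single cell line stands for the disease. The series title names PU.1, the myeloid transcription factor encoded by SPI1, and the contrast asks how gene expression in this line differed between compound and vehicle.

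Autophagy encloses cytoplasm in a double membrane and delivers it to the lysosome. The ULK1 kinase complex starts the process, the PI3-kinase complex marks the membrane with PI3P, lipid transfer proteins enlarge it, and a pair of ubiquitin-like conjugation systems attaches ATG8 proteins (LC3 and GABARAP) to it. Cargo receptors bind both the cargo and ATG8. In leukaemic and normal blood cells the pathway is known for clearing damaged mitochondria and protein aggregates, and its genes are known targets of the transcription factors TFEB, TFE3 and FOXO3. An RNA level does not measure the flow of cargo through the pathway.

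Counts came from 4 libraries, vehicle A and B and DB2115 A and B, with totals of 36547900 to 42446253 counts. Each group has 3 entries in the labels, but its remaining column equalled the sum of A and B in 85.6% of detected genes for vehicle and 86.3% for DB2115 and was left out, so n = 2 libraries per group throughout. Whether A and B were separate cultures is not in the labels, so the p-values speak for the spread between 2 libraries, possibly a technical one. Levels are CPM after TMM scaling, a gene's count relative to the scaled total of its library rather than an amount per cell. In bulk RNA, a change in how many cells of a kind were present and a change in RNA per cell cannot be told apart. Of 11 markers of the myeloid line, 10 were tested: 6 rose and 3 fell, CD33 and MPO being among the higher and PTPRC, FLT3 and LYZ the lower. Of 12 monocyte and macrophage markers, 9 were tested and 8 rose, and their summed level was 15.1 and 16.0 CPM in vehicle against 198 and 205 CPM in DB2115, with MRC1 at 0 counts in every library. CSF1R and ITGAM are on both of these lists. Of 3 B cell markers 2 rose (summed 1.48 and 1.57 against 12.7 and 13.6 CPM), and of 3 fibroblast markers 2 rose (11.0 and 4.62 against 45.1 and 56.0 CPM), while the 3 erythroid markers summed to at most 0.0483 CPM. Of 3 T cell markers 1 was tested and rose (summed 0.0285 and 0 against 1.29 and 0.338 CPM). Of 3 endothelial markers 2 were tested and 1 rose (0.256 and 0.0726 against 0.855 and 1.21 CPM). The 1 epithelial marker tested was not called. Mitochondrial genes held 4.91% and 5.64% of the vehicle counts and 7.65% and 6.93% of the DB2115 counts. The part of these differences in the values below was not tested.

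After 20 h in DB2115 the autophagy genes had moved in both directions. The PI3P reader WIPI1, the ATG8 genes GABARAPL1 and GABARAP, the receptors OPTN and NBR1 and the PI3P reader WDR45 rose at least 2-fold, and ATG4C, a protease that processes ATG8, fell at least 2-fold. At an adjusted p under 0.05 (edgeR quasi-likelihood test, Benjamini-Hochberg over all 17219 genes), 17 of the 42 genes rose (40.5%; 32.7% of all genes tested), 14 fell (33.3%; 31.3% of all genes) and 11 were not called, so 73.8% were called beside 64.1% of all genes. Under upper-quartile factors or total counts the split among called members was 21 higher and 10 lower, so the higher share of calls went from 54.8% to 67.7%, and over all genes it went from 51.1% to 57.3%. A filter of 1 CPM in 3 libraries gave the same split of members, with a higher share of 50% over all genes. At least 2-fold changes were 6 higher and 1 lower, 16.7% of the members, beside 27% of all genes (17.5% higher and 9.53% lower).

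The median log2 fold change of the 42 genes was 0.11 (-0.19 with a trend of GC content and transcript length removed), beside 0.03 for all genes tested, and the values ran from -1.18 to 2.08. Most changes were small: 26 of the 42 genes had a log2 fold change of less than 0.5 in size, and 16 of those were called. The median size of change, regardless of direction, was 0.40 for the members and 0.56 for all genes. Both DB2115 libraries lay above both vehicle libraries for 21 members (42% of all genes) and below them for 16 (39.4% of all genes), and the groups overlapped for 5. With 2 libraries against 2, an exact permutation test of a single gene cannot give a p below 0.333. The members were well covered, with 39 of 42 having at least 100 counts in every library and a median level of 38.1 CPM beside 13.8 CPM for all genes. Summed over the 42 genes, the level was 1581 and 1597 CPM in vehicle and 1676 and 1699 CPM in DB2115.

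**Figure D1:**
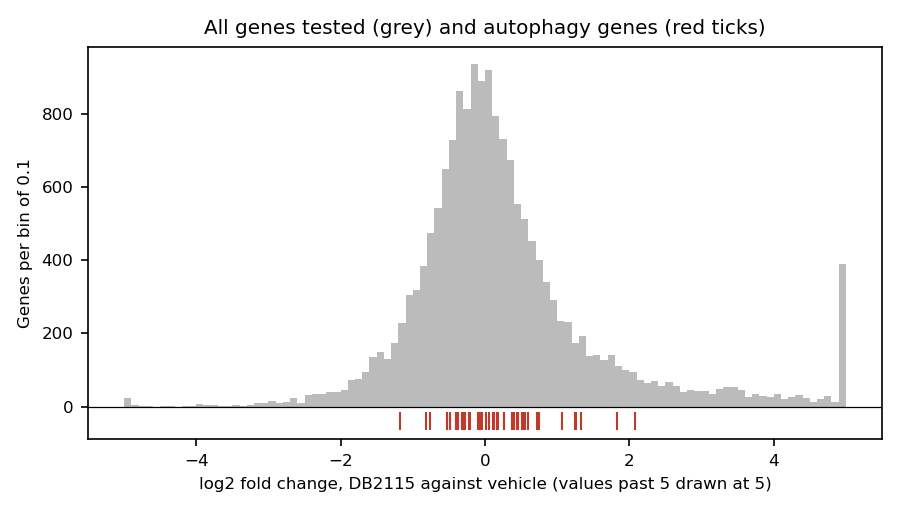
Histogram of the log2 fold change, DB2115 against vehicle, of the 17219 genes tested (grey, in bins of 0.1, with values past 5 drawn at 5) and the 42 autophagy genes as red ticks under the axis. The ticks run from -1.18 to 2.08, inside the range of all genes.

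**Figure D2:**
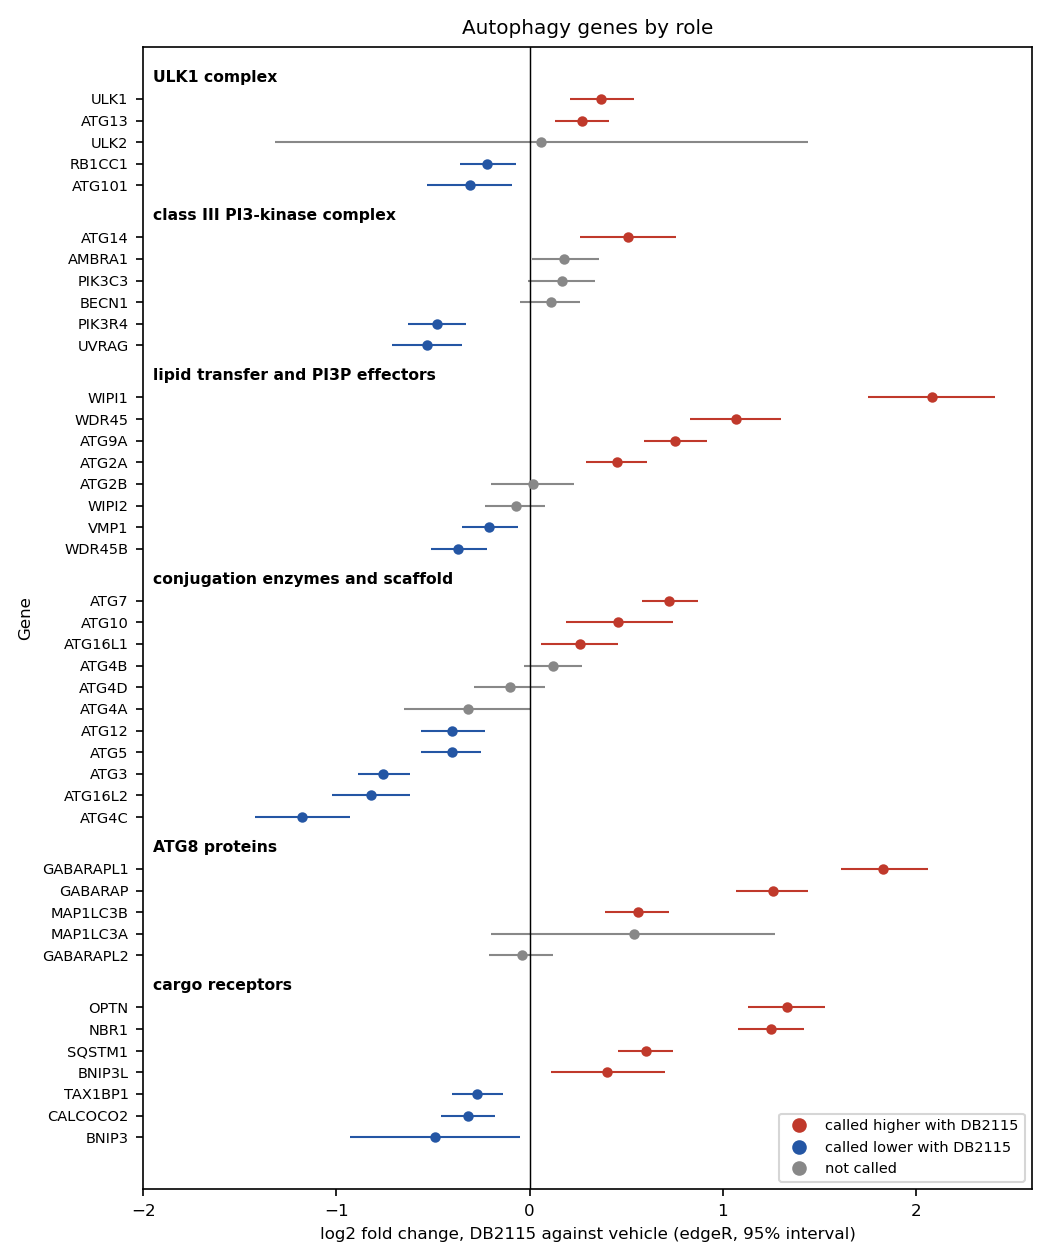
Log2 fold change of each of the 42 autophagy genes, DB2115 against vehicle, grouped by role, with 95% confidence intervals from the edgeR fit on n = 2 libraries per group. WIPI1 and GABARAPL1 are the highest and ATG4C the lowest, and every role but the ATG8 proteins holds both genes called higher and genes called lower.

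Fold change rose with the GC content of a gene's transcripts across all genes: the median log2 fold change was -0.21, -0.04, 0.14 and 0.32 from the lowest to the highest of 4 equal-sized groups of GC content. The members in the same 4 groups had medians of -0.27, 0.11, 0.41 and 0.37. Subtracting this trend and that of transcript length turned the sign of 13 of the 42 values, and the members' median became -0.19. The sign turned for 6 called members, whose values are given beside each gene, and for 7 that were not called: ATG4B (-0.70), AMBRA1 (-0.46), ATG2B (-0.23), ULK2 (-0.20), MAP1LC3A (-0.20), BECN1 (-0.0064) and GABARAPL2 (0.048). ATG9A (0.015) and VMP1 (-0.0091) came to lie near 0. The 6 members that rose at least 2-fold and ATG4C kept their direction without the trend, at log2 values of 1.81 (WIPI1), 1.66 (GABARAPL1), 1.28 (OPTN), 1.09 (NBR1), 0.90 (GABARAP), 0.50 (WDR45) and -0.72 (ATG4C). The part of GC content in the changes was not tested.

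The ULK1 complex, which receives nutrient signals and starts autophagy, changed little and in both directions. Of its 5 genes 2 were higher (32.7% of all genes), 2 lower (31.3% of all genes) and 1 not called. ULK1, its kinase (chromosome 12, 131894651 to 131923167, GRCh38), stood at 46.2 and 48.9 CPM in vehicle and at 65.2 and 58.1 CPM in DB2115, so the groups did not overlap. The rise was 0.37 on the log2 scale (SE 0.07, 1.30-fold, adjusted p = 0.000678, edgeR), and the value was -0.59 with the trend of GC content and length removed. ATG13, the adaptor that ties ULK1 to its partners, rose from 72.7 ± 2.53 to 87.4 ± 3.11 CPM (SD, n = 2; log2 0.27, and -0.23 without the trend). RB1CC1, the scaffold also called FIP200, fell by 0.22 on the log2 scale and was at 0.024 without the trend. ATG101, which stabilises ATG13, fell from 23.6 ± 0.895 to 19.0 ± 2.63 CPM (SD, n = 2). The falls of ATG101 and RB1CC1 were not called under upper-quartile factors or total counts. Leaving out vehicle B ended the calls of ATG13 (0.21), RB1CC1 (-0.21) and ATG101 (-0.37), and that of ATG101 was also lost without vehicle A (-0.28) or DB2115 B (-0.18). ULK2, the second kinase of the complex, was nearly silent at 4 and 27 counts in vehicle and 15 and 19 in DB2115, and its interval on the log2 scale, -1.32 to 1.44, left its change unresolved. Without vehicle A its log2 value was -0.67 and without vehicle B 1.81, neither called. Within each library the count of ULK1 over that of RB1CC1 was 0.811 and 0.824 in vehicle and 1.34 and 1.13 in DB2115. Library scaling cannot move this ratio, but it is not free of the trend of GC content and length. Without the trend the log2 values, -0.59 for ULK1 and 0.024 for RB1CC1, stood in the reverse order. This pair and those that follow were chosen after the values were seen.

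In the class III PI3-kinase complex, the accessory subunits ATG14 and UVRAG moved in opposite directions. In the core, BECN1 and PIK3C3 were not called and PIK3R4 fell (log2 -0.48). ATG14, the subunit that directs the kinase to the site of autophagosome formation (chromosome 14, 55366392 to 55411858), had 9.96 and 9.37 CPM in vehicle and 12.5 and 14.9 CPM in DB2115. Both DB2115 libraries lay above both vehicle libraries, and the rise was 0.51 on the log2 scale (SE 0.12, adjusted p = 0.00183, edgeR). Without vehicle library B it was 0.44 and not called (adjusted p = 0.0803, edgeR). UVRAG, the subunit of the form of the complex that acts on endosomes, had 36.1 and 34.5 CPM in vehicle and 26.0 and 22.9 CPM in DB2115, a fall of 0.53 on the log2 scale (SE 0.08, adjusted p = 0.000111, edgeR). ATG14 and UVRAG occupy the same place on the complex, and the count ratio of ATG14 to UVRAG was 0.276 and 0.271 in vehicle and 0.482 and 0.652 in DB2115.

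BECN1, the beclin 1 scaffold that carries either subunit (chromosome 17, 42810134 to 42833350), had 41.7 and 39.8 CPM in vehicle and 45.7 and 41.9 CPM in DB2115. The groups touch without overlapping, and the difference was not called (log2 0.11, 95% interval -0.05 to 0.26, adjusted p = 0.228, edgeR). BECN1 shares 11.6% of its 75-base stretches with other genes. It overlaps PSME3 on the opposite strand, which fell from 9377 and 10881 counts in vehicle to 5625 and 5201 in DB2115. PIK3C3, the lipid kinase VPS34, had a log2 fold change of 0.17 (interval -0.01 to 0.34), and AMBRA1, a regulator of beclin 1, one of 0.18 (interval 0.01 to 0.36), neither called. Under upper-quartile factors or total counts BECN1, PIK3C3 and AMBRA1 were called higher, and PIK3C3 also without DB2115 A (0.20). PIK3R4, the regulatory subunit VPS15, was the exception in the core and fell from 47.7 ± 0.399 to 34.2 ± 1.19 CPM (SD, n = 2; 1.40-fold lower).

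The genes for membrane supply and PI3P reading gave the largest rise among the members, and close relatives diverged. WIPI1, a propeller protein that binds PI3P (chromosome 17, 68420948 to 68457513), had 2.56 and 2.28 CPM in vehicle and 10.5 and 9.82 CPM in DB2115. It was low in both vehicle libraries and about 4 times as high in both DB2115 libraries, with no overlap. This was 2.08 on the log2 scale (SE 0.15, 4.22-fold, adjusted p = 7.95e-08, edgeR). WIPI2, the relative that recruits ATG16L1 to the membrane, was 67.5 ± 1.23 CPM in vehicle and 64.2 ± 5.34 CPM in DB2115 (SD, n = 2), with overlapping groups and no call. Per kilobase of exon, WIPI1 went from 0.711 to 2.99 CPM and WIPI2 from 7.52 to 7.16 CPM, so WIPI2 remained the higher of the pair. WIPI1 shares 20.4% of its 75-base stretches with other genes, most of them with ARSG on the opposite strand, which had 177 and 183 counts in vehicle and 289 and 235 in DB2115. The WIPI1 counts themselves were 90 and 94 against 432 and 407.

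WDR45, the relative also called WIPI4 that works with the ATG2 proteins (chromosome X, 49071470 to 49101170), had 6.66 and 7.09 CPM in vehicle and 14.4 and 14.5 CPM in DB2115. The libraries of each group lay close together and the groups well apart, with a log2 fold change of 1.07 (SE 0.11, 2.10-fold, adjusted p = 2.08e-06, edgeR). WDR45 overlaps PRAF2 on the same strand, and PRAF2 rose too, from 66 and 61 counts to 271 and 245. WDR45B, the relative also called WIPI3, fell from 52.3 ± 0.166 to 40.6 ± 0.524 CPM (SD, n = 2). The count ratio of WDR45 to WDR45B was 0.127 and 0.136 in vehicle and 0.351 and 0.360 in DB2115.

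ATG9A, the lipid scramblase whose vesicles seed the new membrane, rose from 26.3 ± 1.37 to 44.3 ± 0.458 CPM (SD, n = 2; 1.69-fold), and 31.4% of its 75-base stretches are also in a read-through gene with at most 26 counts in any library. Its log2 fold change was 0.75, and it was 0.015 with the trend of GC content and length removed. ATG2A, a lipid transfer protein, rose by 0.45 on the log2 scale (-0.52 without the trend), whereas its paralog ATG2B was level at 17.2 ± 1.93 and 17.4 ± 0.0747 CPM with overlapping groups. VMP1, an endoplasmic reticulum scramblase, fell by 0.21 on the log2 scale, a call that was lost under upper-quartile factors and total counts and without vehicle A (-0.19), vehicle B (-0.26) or DB2115 A (-0.19).

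The conjugation systems were the role with the lowest median, -0.32 on the log2 scale. Of its 11 genes 5 fell (31.3% of all genes), 3 rose (32.7% of all genes) and 3 were not called. With the trend of GC content and length removed, the lower genes were at -1.68 (ATG16L2), -0.72 (ATG4C), -0.60 (ATG3), -0.18 (ATG5) and -0.17 (ATG12). The higher genes were then at 0.48 (ATG10), 0.26 (ATG7) and -0.0022 (ATG16L1). The summed level of the 11 genes was 406 and 415 CPM in vehicle and 342 and 337 CPM in DB2115. The enzymes at the start and end of the ATG8 branch moved apart. ATG7, the E1-like enzyme that serves both branches (chromosome 3, 11272309 to 11557665), had 31.9 and 32.6 CPM in vehicle and 52.9 and 53.5 CPM in DB2115 (1.65-fold higher). ATG3, the E2-like enzyme that passes ATG8 to the lipid (chromosome 3, 112532509 to 112562046), had 114 and 114 CPM in vehicle and 66.2 and 69.0 CPM in DB2115 (1.69-fold lower). In both genes the libraries of a group nearly coincided, and the adjusted p was 8.68e-07 for ATG7 and 2.19e-07 for ATG3 (edgeR). The count ratio of ATG7 to ATG3 was 0.279 and 0.285 in vehicle and 0.799 and 0.776 in DB2115. ATG7 shares 15.7% of its 75-base stretches with VGLL4 on the opposite strand, which had a log2 fold change of 0.01.

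ATG10, the E2-like enzyme of the other branch, overlaps RPS23 on the opposite strand, which holds 5.27% of its 75-base stretches. RPS23 had 38455 and 40877 counts in vehicle and 40646 and 40437 in DB2115. ATG10 had 242 and 265 counts against 358 and 396, and rose from 6.65 ± 0.334 to 9.15 ± 0.577 CPM (SD, n = 2). Without vehicle library B it was not called (log2 0.39, adjusted p = 0.0871, edgeR). ATG12, the ubiquitin-like protein that ATG10 transfers, and ATG5, its acceptor, both fell by 0.40 on the log2 scale. The scaffolds that bind the ATG12 and ATG5 conjugate diverged: ATG16L1, the form that directs conjugation to the autophagosome, rose by 0.26 on the log2 scale (-0.0022 with the trend of GC content and length removed, and not called with DESeq2 or, at 0.28, 0.20 and 0.11, without vehicle A, vehicle B or DB2115 A), and its paralog ATG16L2 fell from 48.2 and 59.3 CPM to 31.3 and 29.6 CPM. The count ratio of ATG16L1 to ATG16L2 was 0.539 and 0.416 in vehicle and 1.05 and 0.932 in DB2115.

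Of the 4 ATG4 proteases, which trim ATG8 proteins and release them from lipid, 1 was called, beside 64.1% of all genes. ATG4C (chromosome 1, 62784135 to 62865513) had 16.4 and 17.1 CPM in vehicle and 6.89 and 7.96 CPM in DB2115. Both DB2115 libraries held less than any vehicle library, and the change was -1.18 on the log2 scale (SE 0.11, 2.26-fold lower, adjusted p = 9.49e-07, edgeR). ATG4B, the protease with the broadest activity on ATG8 proteins, had a log2 fold change of 0.12 (interval -0.03 to 0.27) and was called higher under upper-quartile factors and total counts. ATG4D had -0.10 (interval -0.29 to 0.08) and ATG4A -0.32 (interval -0.65 to 0.00), the latter called lower without DB2115 A (-0.48). Per library, the count ratio of ATG4B to ATG4C was 2.82 and 2.85 in vehicle and 7.75 and 6.25 in DB2115. Without the trend of GC content and length, the log2 values of this pair were alike, at -0.70 (ATG4B) and -0.72 (ATG4C).

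The ATG8 proteins, the ubiquitin-like tags of the autophagosome, were the role with the highest median log2 fold change, 0.56: 3 of the 5 genes rose, none fell and 2 were not called. Over all genes 32.7% rose and 31.3% fell. GABARAPL1 (chromosome 12, 10212458 to 10223130) had 5.83 and 6.46 CPM in vehicle and 22.3 and 21.6 CPM in DB2115. The groups lay far apart beside the spread within each, with a log2 fold change of 1.83 (SE 0.10, 3.56-fold, adjusted p = 7.61e-09, edgeR). GABARAP (chromosome 17, 7240014 to 7242770) had 32.0 and 29.8 CPM in vehicle and 79.7 and 67.8 CPM in DB2115, a log2 fold change of 1.26 (SE 0.08, 2.39-fold, adjusted p = 3.80e-08, edgeR). GABARAP shares 45.1% of its 75-base stretches with overlapping genes, and the one with the largest share had 0 counts in every library. MAP1LC3B, which encodes LC3B, the usual laboratory marker of autophagosomes (chromosome 16, 87383995 to 87404779), had 23.2 and 22.7 CPM in vehicle and 34.0 and 33.5 CPM in DB2115, with no overlap and a log2 fold change of 0.56 (SE 0.08, 1.47-fold, adjusted p = 2.92e-05, edgeR). A near-identical gene, MAP1LC3B2, holds 4.18% of its 75-base stretches.

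The remaining ATG8 genes were not called. GABARAPL2 was level at 31.5 and 31.3 CPM in vehicle and 29.4 and 31.5 CPM in DB2115, with a 95% interval of -0.21 to 0.12 on the log2 scale. MAP1LC3A was low and differed between the vehicle libraries, at 1.11 and 2.83 CPM against 3.25 and 2.56 CPM in DB2115, so its groups overlapped. Its log2 fold change of 0.54 rested on single libraries: it was 0.025 without vehicle A, and it was called at 1.36 without vehicle B (adjusted p = 0.0199, edgeR) and at 0.69 without DB2115 B (adjusted p = 0.0333, edgeR).

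The makeup of ATG8 transcripts therefore differed between the groups. On the CPM per kilobase scale the 5 genes summed to 30.9 and 30.9 in vehicle and 58.6 and 53.3 in DB2115. GABARAP made up 45.7% and 42.6% of that sum in vehicle and 60.1% and 56.1% in DB2115, GABARAPL1 4.62% and 5.12% against 9.32% and 9.90%, and GABARAPL2 33.6% and 33.3% against 16.6% and 19.5%. MAP1LC3B, although it rose, went from 14.1% and 13.8% to 10.9% and 11.8%, as GABARAP and GABARAPL1 rose by larger factors. The order of levels per kilobase was GABARAP, GABARAPL2, MAP1LC3B and then the lowest pair, in every library. GABARAPL1 and MAP1LC3A, that pair, overlapped in vehicle (1.43 and 1.58 against 0.630 and 1.61 CPM per kilobase) and were apart in DB2115 (5.46 and 5.28 against 1.84 and 1.45). The count ratio of GABARAPL1 to GABARAPL2 was 0.185 and 0.207 in vehicle and 0.758 and 0.686 in DB2115.

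**Figure D3:**
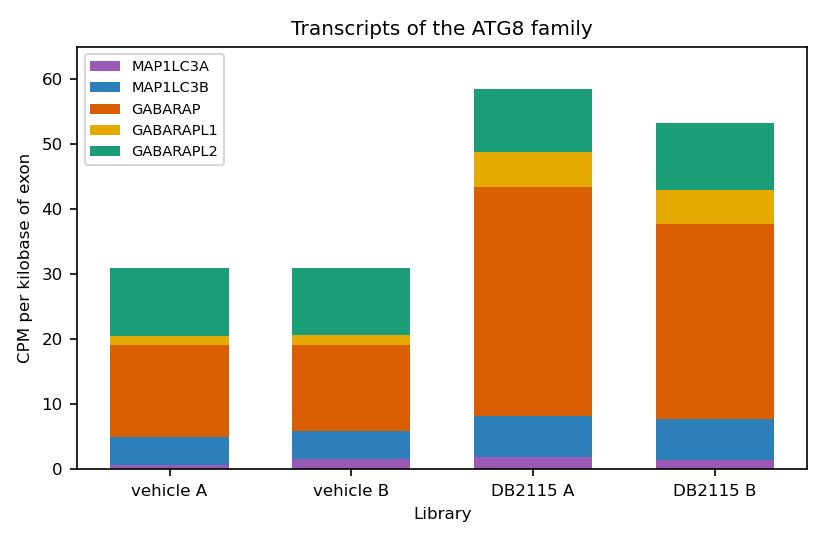
Level of the 5 ATG8 genes in each of the 4 libraries, in CPM per kilobase of exon, stacked to their sum. GABARAP is the highest in every library, the sum is 30.9 in vehicle A and B, 58.6 in DB2115 A and 53.3 in DB2115 B, and GABARAPL2 stays near 10.

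All 7 cargo receptors were called, 4 higher and 3 lower, beside 64.1% of all genes called. The calls of BNIP3 and BNIP3L each rested on a single DB2115 library, as given below. NBR1, a receptor for ubiquitinated protein aggregates and peroxisomes (chromosome 17, 43170481 to 43211689), had 39.1 and 41.9 CPM in vehicle and 89.5 and 103 CPM in DB2115. Every DB2115 value was above every vehicle value, and the rise was 1.25 on the log2 scale (SE 0.08, 2.38-fold, adjusted p = 2.12e-08, edgeR). OPTN, optineurin, a receptor for damaged mitochondria and bacteria (chromosome 10, 13099449 to 13138308), had 11.0 and 11.9 CPM in vehicle and 27.5 and 30.0 CPM in DB2115, with a log2 fold change of 1.33 (SE 0.09, 2.51-fold, adjusted p = 5.39e-08, edgeR). SQSTM1, the receptor p62 that gathers ubiquitinated proteins into condensates (chromosome 5, 179806398 to 179838078), had 73.4 and 75.02 CPM in vehicle and 116 and 109 CPM in DB2115. The groups did not overlap, and the rise was 0.60 on the log2 scale (SE 0.06, 1.52-fold, adjusted p = 2.56e-06, edgeR), but the value was -0.15 with the trend of GC content and length removed. SQSTM1 shares 18.4% of its 75-base stretches with other genes, mainly MRNIP on the opposite strand.

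TAX1BP1 and CALCOCO2 (NDP52), receptors that are paralogs of one another, fell slightly. TAX1BP1 went from 123 ± 1.59 to 102 ± 1.73 CPM and CALCOCO2 from 71.8 ± 0.595 to 57.5 ± 1.74 CPM (SD, n = 2). Receptors thus moved against each other: the count ratio of NBR1 to TAX1BP1 was 0.322 and 0.339 in vehicle and 0.889 and 1 in DB2115, and that of OPTN to CALCOCO2 was 0.152 and 0.167 against 0.488 and 0.511. In vehicle TAX1BP1 had the most counts of the 7 receptors, 4270 and 5113. In DB2115 SQSTM1 had the most, 4754 and 4521. TAX1BP1 then had 4122 and 4272 counts and NBR1 3664 and 4272.

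BNIP3 and BNIP3L (NIX), receptors in the outer mitochondrial membrane and known targets of the hypoxia-inducible factor HIF-1, differed between the libraries of the DB2115 group. BNIP3 had 67.7 and 64.3 CPM in vehicle but 31.9 CPM in DB2115 A and 62.0 CPM in DB2115 B. The fall of 0.49 on the log2 scale (SE 0.20, adjusted p = 0.0484, edgeR) rested on library A: without it the log2 fold change was -0.11 (adjusted p = 0.284, edgeR), and without library B -1.06. The call was also lost under upper-quartile factors, total counts and 1 other filter, with DESeq2, without either vehicle library and in a fit of all 6 columns. BNIP3L had 35.7 and 33.9 CPM in vehicle, 37.0 CPM in DB2115 A and 54.9 CPM in DB2115 B. Its rise of 0.40 (SE 0.14, adjusted p = 0.0195, edgeR) rested on library B and was 0.08 without it (adjusted p = 0.462, edgeR), and neither DESeq2 nor the fit lacking vehicle library B called it. Despite this, the count ratio of BNIP3L to BNIP3 was 0.526 and 0.527 in vehicle and 1.16 and 0.885 in DB2115, so the groups stood apart for the pair.

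Other targets of HIF-1 differed between the same libraries. Of 20 HIF-1 targets tested, 19 were higher in DB2115 B than in DB2115 A, whereas 45.8% of all genes were. The median log2 ratio of B to A was 0.41 for the targets and -0.02 for all genes, with BNIP3 at 0.95 and BNIP3L at 0.57. Between the vehicle libraries the median ratio of the targets was -0.07. In the comparison of groups, 4 of the 20 targets rose (32.7% of all genes), 9 fell (31.3% of all genes) and 7 were not called. The number rising changed with the library that was left out. NDRG1, a stress-induced differentiation gene, was the highest, at 75.5 and 70.4 CPM in vehicle and 205 and 353 CPM in DB2115. HK2, a hexokinase that feeds glycolysis, fell by 2.38 on the log2 scale, and PGK1, a glycolytic kinase, fell by 0.80. Oxygen, density and medium of the cultures are not given per library, and their part in this difference was not tested.

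**Figure D4:**
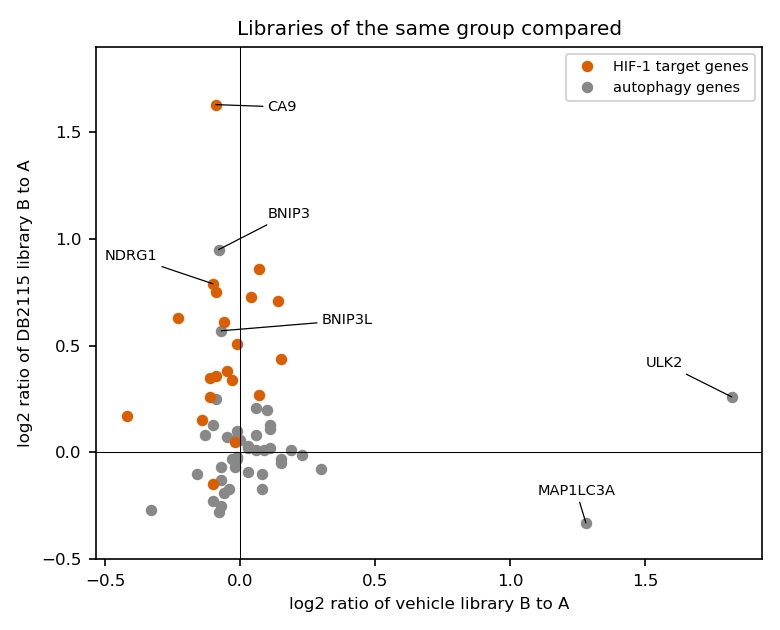
Log2 ratio of library B to library A within vehicle (horizontal axis) and within DB2115 (vertical axis) for the 20 HIF-1 targets tested (orange) and the 42 autophagy genes (grey). BNIP3 (0.95) and BNIP3L (0.57) lie among the HIF-1 targets, high in DB2115 B, while ULK2 and MAP1LC3A stand apart along the vehicle axis.

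**Figure D5:**
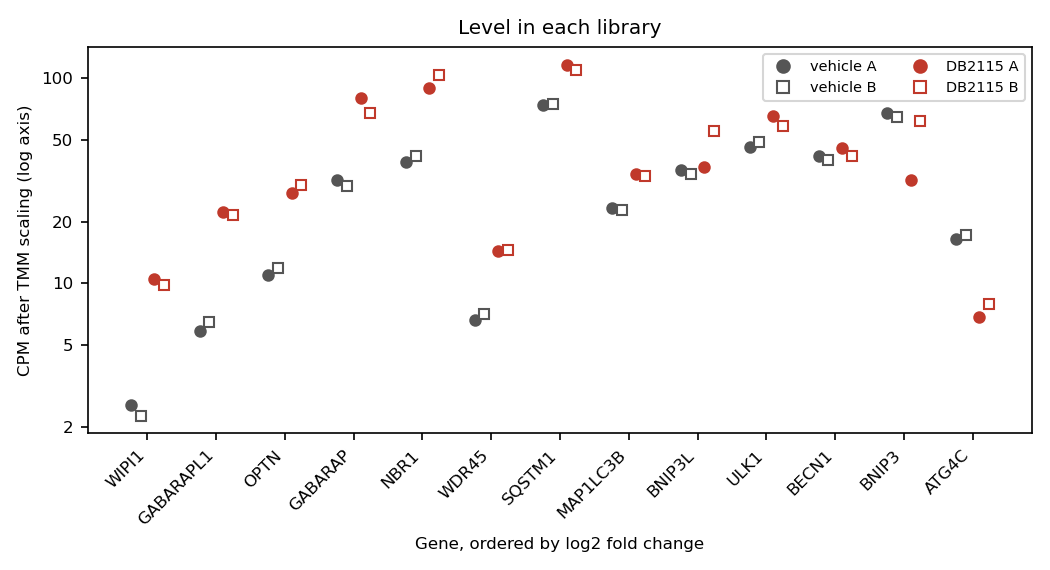
Level in each of the 4 libraries, in CPM after TMM scaling on a log axis, of the 13 genes named for the size of their change or their role in the pathway, ordered by log2 fold change (circles are libraries A, squares libraries B, vehicle grey, DB2115 red). The libraries of a group lie close together for most genes, and BNIP3 differs between DB2115 A (31.9 CPM) and DB2115 B (62.0 CPM).

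The start sites of the members were searched for short motifs of factors that act on autophagy genes, in the 250 bases before to 50 after the start (RefSeq, GRCh38.p14), and 36 of the 42 members had a sequence. The E-box CACGTG, the core of the sites bound by TFEB and TFE3 and also by MYC and USF, was found in 3 of the 36 promoters (8.33%), beside 7.26% of 35116 promoters in all and 9.33% of 16254 promoters of tested genes. These 3 are printed because they belong to a gene that rose, ATG14, and to a pair called lower, ATG3 and BNIP3. The fall of BNIP3 rested on DB2115 library A (-0.11 without it, not called), so ATG14 and ATG3 are the pair with these letters and opposite changes. Capitals mark the E-box. All 3 are on the minus strand and read 5′ to 3′, at chr14:55411826-55411871, chr3:112561932-112562000 and chr10:131982032-131982077 respectively.
ATG14: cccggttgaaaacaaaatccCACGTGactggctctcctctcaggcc
ATG3: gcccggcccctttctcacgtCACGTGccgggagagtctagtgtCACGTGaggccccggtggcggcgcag
BNIP3: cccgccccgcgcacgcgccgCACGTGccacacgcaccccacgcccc

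ATG3 holds the E-box at 2 positions, and 1 of them is part of the longer TFEB-type motif TCACGTGA, which 2.78% of member promoters and 0.98% of all promoters hold (1.62% of those of tested genes). Each motif was searched on both strands, and every TCACGTGA also counts as a CACGTG. The FOXO motif GTAAACA was in the promoters of CALCOCO2, which fell, and WDR45, which rose (5.56% of members, 3.42% of all, 2.65% of tested genes). The antioxidant response element TGACNNNGC was in those of ATG101, CALCOCO2 and MAP1LC3B (8.33%, 13.3% and 14.6%). The PU.1-type motif GAGGAAGT was in none of the 36, beside 2.59% of all promoters and 2.85% of those of tested genes. A match says only that the letters are present in the window.

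Genes that regulate autophagy were read from a list of 42, of which 41 were tested. Of these 18 rose (32.7% of all genes), 11 fell (31.3% of all genes) and 12 were not called. The median log2 fold change was 0.07 (0.03 for all genes). The MiT family of transcription factors, which switch on lysosome and autophagy genes, split. TFEB had 31.8 and 32.5 CPM in vehicle and 74.96 and 73.7 CPM in DB2115 (log2 1.21, adjusted p = 5.29e-09, edgeR), and TFE3 had 26.2 and 23.6 CPM against 83.7 and 76.9 CPM (log2 1.69, adjusted p = 1.10e-09, edgeR). TFEC, the family member best known in macrophages, had 30.4 and 34.6 CPM in vehicle and 5.25 and 4.13 CPM in DB2115, and MITF had 8.85 and 7.77 CPM against 3.39 and 3.26 CPM. Thus 2 of the 4 rose and 2 fell, each with no overlap between groups (over all genes, 42% were apart as higher and 39.4% as lower). FOXO3, a factor that drives autophagy genes under starvation, rose by 1.00 on the log2 scale, from 80.2 ± 4.29 to 160 ± 7.91 CPM (SD, n = 2). SESN3, a sestrin that restrains mTORC1 and a known FOXO target, rose 4.29-fold to 11.98 ± 0.288 CPM, and MLST8, a subunit of mTORC1 and mTORC2, fell by 0.55 on the log2 scale.

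The genes that fuse the autophagosome with the lysosome were evenly divided, with 9 of 27 higher, 9 lower and 9 not called. Over all genes 32.7% were higher and 31.3% lower. RILP, an effector of RAB7 that moves lysosomes toward the centre of the cell, rose from 2.45 and 2.25 CPM to 14.8 and 12.7 CPM (log2 2.55). PLEKHM1, an adaptor of RAB7 and the HOPS tether, rose by a log2 of 1.14. RUBCN (Rubicon), an inhibitor of the UVRAG form of the PI3-kinase complex, rose from 14.9 and 15.6 to 33.6 and 35.2 CPM (log2 1.17), and RUBCNL (Pacer), its antagonist, fell from 80.8 and 78.1 to 26.2 and 27.1 CPM (log2 -1.58). UVRAG was lower as well. Groups did not overlap for any of these 3 regulators of the same complex. Over all genes, 42% were apart as higher and 39.4% as lower. The 3 were set side by side after the values were seen, and a joint change was not tested. RAB2A, a GTPase of HOPS recruitment, fell by 0.52 on the log2 scale.

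Further receptors and cofactors, a list chosen with results of these data known, were more often higher. Of 38 listed, 35 were tested: 24 rose (32.7% of all genes), 5 fell (31.3% of all genes) and 6 were not called. Their median log2 fold change was 0.37. TP53INP1, a p53 target that binds ATG8 proteins, rose from 2.73 and 2.66 CPM to 32.6 and 32.7 CPM (12.1-fold, adjusted p = 2.65e-11, edgeR). PINK1, the kinase that marks damaged mitochondria for the receptors OPTN and CALCOCO2, rose from 7.14 and 6.46 CPM to 32.5 and 30.1 CPM (4.61-fold). CALCOCO1, a receptor for the endoplasmic reticulum and Golgi, rose 2.50-fold. EI24, an endoplasmic reticulum protein needed for degradation in autophagy, fell by 0.89, DRAM1, a lysosomal p53 target, fell by 0.95 and PHB2, a receptor of the inner mitochondrial membrane, fell by 0.70 on the log2 scale.

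Among the 20 V-ATPase subunits tested, of 24 listed, 9 rose, 6 fell and 5 were not called, with a median of 0.10. This proton pump acidifies the lysosome in which autophagosomes end. ATP6V1B2, a subunit of the domain that splits ATP, rose from 156 and 155 to 311 and 295 CPM (1.95-fold), and ATP6V0D1, a subunit linking the pump's domains, rose 1.88-fold. ATP6V1G2, the neuronal form of a stalk subunit, rose 20.9-fold from 11 and 10 counts to 238 and 241. ATP6V0A2, ATP6V0B and ATP6V1F fell by 0.62, 0.53 and 0.41 on the log2 scale. The 5 lists were chosen with results of these data known, and their counts stand beside the same backgrounds of 32.7% higher and 31.3% lower.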

How the data were processed

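RNA was sequenced from MOLM-13 cells in 5 µM DB2115 or vehicle, 20 h each. The authors deposited raw read counts per gene for 58381 Ensembl identifiers, per the file headers and values. Per the submitters' processing notes, hg38, STAR, FastQC and DESeq2 were used. Versions, the annotation, the counter and whether strand was used: not given in the sources used here. Counts of genes that overlap or nearly match another are therefore uncertain. Symbols matched 58261 identifiers, with coordinates from GENCODE release 29 (GRCh38).

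The design was planned for 3 libraries per group, and 2 were analysed, since the remaining column of each group was close to the sum of the others. Counts were TMM-scaled and filtered (filterByExpr, minimum count 10, minimum total 15), and groups were compared with edgeR 4.0.16 (glmQLFit, glmQLFTest, treatment as the only term) in R 4.3.3. The common biological coefficient of variation was 6.33%. At these depths 3 counts correspond to 0.0724 to 0.0854 CPM. Standard errors were computed by dividing the change by the root of its F value. Log2 ratios of library B to library A of a group used a pseudocount of 0.1 CPM, and count ratios within a library used none. The fit was tested on simulated data of 17219 genes, with 50 genes changed at each of several sizes. It recovered 62% of them at 1.5-fold, 66% at 2-fold, 90% at 4-fold and 100% at 8-fold. Far fewer genes changed there than the 64.1% called here, so it does not test the scaling under so broad a shift. Alternatives covered scaling, filters, DESeq2 1.42.0, limma-voom (limma 3.58.1), all 6 columns, each library left out, a block on column letters, and GC content and length.

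The members and gene lists were chosen with earlier results of these data known. All 42 members are named. Values of every library are given for members called with a log2 change of at least 1 and for SQSTM1, MAP1LC3B, ULK1 and BECN1. From each other list up to 3 called genes per direction with the smallest adjusted p are named, with TFEB, TFE3, MITF and FOXO3; 1 gene that this picks is left out of the text. Other values per library, the count ratios and UVRAG beside RUBCN were chosen after the values were seen.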

Additional observations from a re-analysis of the deposited data

How the results depend on the processing

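Of the 31 called members, 22 were called in the same direction in all 13 alternatives that give a p, and 9 lost the call in at least 1: ATG13, ATG101, RB1CC1, ATG14, VMP1, ATG10, ATG16L1, BNIP3 and BNIP3L. Among the 13, the fit of all 6 columns adds columns close to the sum of A and B, so its p does not come from separate libraries. Removing the trend of GC content and transcript length gives values with no p. Among called members the log2 fold change then turned for ULK1 (-0.59), ATG13 (-0.23), RB1CC1 (0.024), ATG2A (-0.52), ATG16L1 (-0.0022) and SQSTM1 (-0.15), ATG9A fell to 0.015, and the median of the members became -0.19. That median was 0.21 with upper-quartile factors and with total counts, 0.20 with a filter of 1 CPM in 3 libraries, and 0.048 to 0.17 when a library was left out, 0.048 being without vehicle library A. Upper-quartile factors moved the median of all genes by 0.09 and total counts by 0.10 on the log2 scale, relative to TMM. HIF-1 targets called higher numbered 2 with DESeq2 and 2 to 6 when a library was left out (2 without vehicle library B, 2 without DB2115 library B, 6 without DB2115 library A). With a library left out, 13 to 17 members were called higher and 10 to 13 lower, beside 4465 to 5267 and 4373 to 5442 of all genes (5634 and 5396 with all 4 libraries), and a single remaining library was assumed to vary like the other group. The columns carry letters, not the replicate numbers of the labels, and the deviations of same-letter columns from their group means had a correlation of 0.0464 over 17219 genes, so the letters were not taken to pair the libraries. With a replicate block on the letters, 19 members were called higher and 15 lower (5810 and 5614 of all genes), PIK3C3 and AMBRA1 being added as higher and ATG4A as lower, and the median was 0.14. ULK2 and MAP1LC3A differed between the vehicle libraries by 1.82 and 1.28 on the log2 scale.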
